A study of Mus with 15 samples.

Results

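Genes that make, move, store and export cholesterol were described in grafted mouse fat. The group held 35 genes, chosen by symbol from the 55471 genes of the deposited matrix, and all 35 were expressed highly enough to be tested. They comprised 19 genes of cholesterol synthesis, 4 of its regulation, 5 of uptake and transfer inside the cell, 5 of storage and efflux, and 2 of oxysterol production. The study profiled mRNA of adipose tissue from wild type C57BL/6 mice aged 7 weeks, in 3 groups of 5 samples, namely control fat, 3 day grafts and 7 day grafts. No transgene or drug is named for any group. The labels do not give the depot, the sex, the donor or recipient, or whether the samples of a group came from separate animals, so the p-values measure the spread between these samples, which may be technical. Grafted and host cells were not separated by the labels. According to its title, the study asked which metabolic changes graft survival requires.

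Cells make cholesterol from acetyl-CoA through mevalonate, the isoprenoids and squalene, and then through a series of sterols that begins with lanosterol. SREBP-2, encoded by Srebf2, turns this pathway on when membrane sterol is low: SCAP escorts it to the Golgi for cleavage, and the INSIG proteins hold the complex back when sterol is plentiful. Cholesterol can instead be taken up with lipoproteins or dead cells, freed in the lysosome, esterified for storage, or exported through ABC transporters to apolipoproteins. In fat, adipocytes hold a large pool of free cholesterol, and macrophages that clear dying adipocytes load themselves with lipid.

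The libraries held 17109216 to 31997959 counts each, and 16051 genes were tested. Mitochondrially encoded genes took 9.01% to 14.9% of the counts in controls and 2.17% to 4.02% in grafts. The adipose label was checked on 16 adipocyte markers, none of which was at 0 in any library. Their summed level ran from 21224 to 64877 CPM (counts scaled to library size) in controls, 3655 to 9941 CPM at day 3 and 2011 to 3945 CPM at day 7, and 16 of 16 were lower in grafts at both times. The 12 macrophage markers summed to 589 to 2243 CPM in controls, 3840 to 7532 CPM at day 3 and 4628 to 8802 CPM at day 7, with 11 of 12 higher at both times and none at 0. Of 9 markers of lipid-laden macrophages 8 were higher at both times. The 8 fibroblast markers summed to 1721 to 7632 CPM in controls, 12668 to 27051 CPM at day 3 and 25886 to 30932 CPM at day 7. They were mixed gene by gene, with 4 higher and 4 not called at day 3. At day 7, 5 were higher, 1 was lower and 2 were not called. Of 8 endothelial markers 5 were higher at day 3 and 6 at day 7, with 0 lower. Of 9 neutrophil markers 5 were higher at both times, with 1 lower at day 3 and 0 at day 7. Lymphocyte genes went down, with 8 of 8 B cell markers, 8 of 8 T cell markers and 6 of 6 tested lymph node markers lower at both times. For all these marker counts, 30.1% of all genes tested were higher and 30.3% lower at day 3, and 32.2% and 28.4% at day 7. B cell markers summed to 194 to 2554 CPM in controls and 5.36 to 30.1 CPM in grafts. The controls were uneven: skeletal muscle markers summed to 3630 CPM in control 2, lymph node markers to 141 CPM in control 4 against 990.1 to 1299 CPM in the other controls, and macrophage markers were highest in control 5. Keratinocyte markers summed to 169 CPM in control 1, against a median of 10.8 CPM over the controls and at most 8.42 CPM in grafts. Grafts were uneven too. Their muscle markers summed to 405 CPM in day 3 graft 1 and to 174 and 324 CPM in day 7 grafts 1 and 3. The other grafts had at most 19.1 CPM.

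Synthesis genes were mostly lower in grafts, while Lipa, Npc1 and Stard4, which free and move cholesterol inside the cell, and Soat1, which esterifies it, were higher. A gene was called changed when its adjusted p was under 0.05 by limma-voom with Benjamini-Hochberg adjustment over all genes tested. At day 3, 25 of the 35 genes were called against control, 7 higher and 18 lower, where 60.4% of all genes tested were called, 30.1% higher and 30.3% lower. At day 7, 21 were called, 6 higher and 15 lower, where 60.7% of all genes were called, 32.2% higher and 28.4% lower. The median log2 change of the 35 genes was -0.51 at day 3 and -0.35 at day 7, against -0.01 and 0.03 over all genes tested. Every graft lay above every control in 5 of 35 genes at day 3 and 4 at day 7, where 20.6% and 22.7% of all genes did, and below in 13 and 9, where 19.9% and 19.8% did. Between day 7 and day 3 grafts 1 of 35 rose and 0 fell, where 4.88% of all genes were called, 3.18% higher and 1.71% lower. The 2 graft groups did not overlap in 2 genes that were higher at day 7 (4.56% of all genes) and 1 that was lower (3.32%). The counts of the smaller lists below and of the marker lists above are to be read against these same shares. Both graft comparisons share the same 5 controls. In bulk tissue, fewer cells of a type and less RNA per cell cannot be told apart. The part of the adipocyte, macrophage, fibroblast, endothelial, neutrophil and lymphocyte shifts in these changes was not tested.

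Synthesis genes as a group gave 0 higher, 13 lower and 6 not called of 19 at day 3, with a median log2 change of -1.04. At day 7 they gave 2 higher, 11 lower and 6 not called, with a median of -0.79. Among all genes tested, 30.1% were called higher and 30.3% lower at day 3, and 32.2% and 28.4% at day 7. Every graft sample lay below every control in 10 of 19 genes at day 3 and in 8 of 19 at day 7. Over all genes tested, 19.9% and 19.8% did so. The falls were not uniform along the pathway, as the plot of synthesis genes in pathway order shows.

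**Figure D1:**
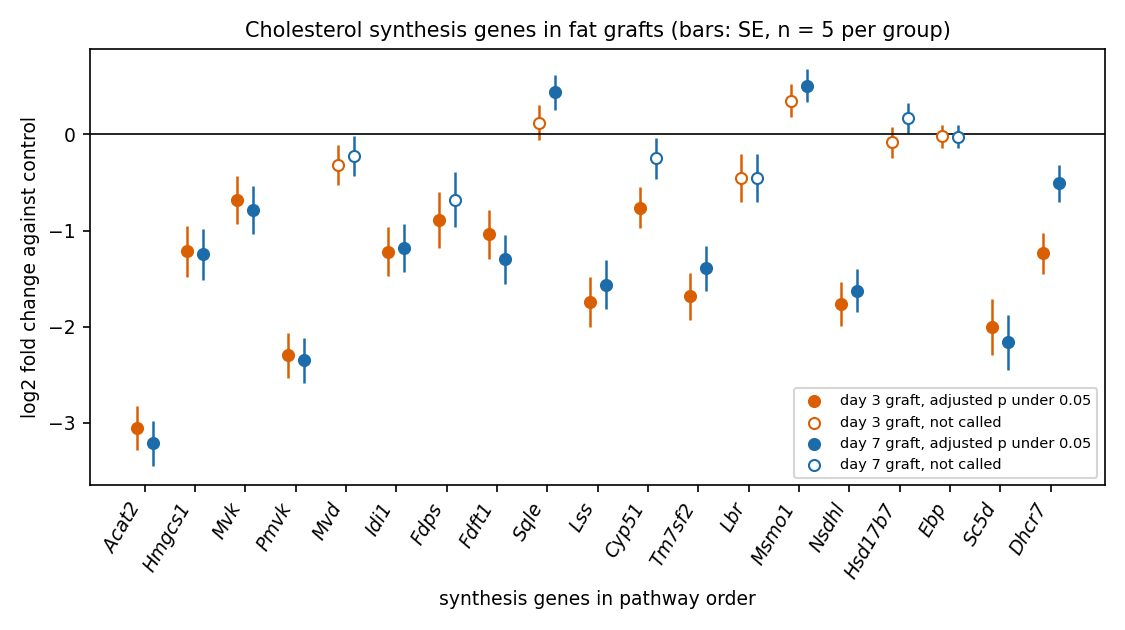
Log2 fold change against control of the 19 synthesis genes, in pathway order, at day 3 and day 7 (n = 5 per group; bars are SE; filled points have an adjusted p under 0.05). Acat2 lay lowest at -3.05 and -3.21, while Sqle and Msmo1 lay above 0 at both times.

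At the entry to the pathway, Acat2, which joins acetyl-CoA units (ENSMUSG00000023832, chromosome 17, 12942890 to 12960747 in mm10), had the largest fall of the 35 genes. Its level was 165, 152, 102, 252 and 129.7 CPM in control samples 1 to 5, 14.8, 26.3, 18.5, 14.8 and 19.4 CPM in day 3 grafts 1 to 5, and 16.4, 20.5, 18.7, 16.2 and 11.4 CPM in day 7 grafts 1 to 5. Every graft sample was below every control. The log2 change was -3.05 ± 0.23 (SE), adjusted p = 2.12e-07 at day 3, an 8.31-fold lower level, and -3.21 ± 0.23 (SE), adjusted p = 1.26e-07 at day 7. A neighbouring near-copy, Acat3, can share reads with it, and the summed level of both copies was 173 ± 61.8 CPM (SD, n = 5) in controls, 22.1 ± 4.72 CPM at day 3 and 18.8 ± 3.44 CPM at day 7.

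Hmgcs1, the HMG-CoA synthase of the cytosol (ENSMUSG00000093930, chromosome 13, 119690379 to 119708260), was at 226, 152, 153, 300.3 and 101 CPM in control samples 1 to 5, 76.6, 92.2, 68.4, 64.1 and 74.9 CPM in day 3 grafts 1 to 5, and 74.8, 95.8, 73.2, 93.8 and 42.05 CPM in day 7 grafts 1 to 5. The groups did not overlap, although control 5 was close to the highest grafts. For Hmgcs1, the log2 change was -1.22 ± 0.27 (SE), adjusted p = 0.00123 at day 3 and -1.25 ± 0.27 (SE), adjusted p = 9.85e-04 at day 7. Pmvk, which adds the second phosphate to mevalonate (ENSMUSG00000027952, chromosome 3, 89454541 to 89469013), was at 86.7, 82.3, 62.7, 135 and 44.2 CPM in control samples 1 to 5, 15.1, 17.1, 17.3, 14.3 and 14.3 CPM in day 3 grafts 1 to 5, and 11.9, 17.1, 16.2, 14.4 and 15.8 CPM in day 7 grafts 1 to 5. All grafts sat in a narrow band well below the controls, whose own values were spread widely. For Pmvk, the log2 change was -2.300 ± 0.24 (SE), adjusted p = 1.98e-06 at day 3 and -2.35 ± 0.24 (SE), adjusted p = 1.45e-06 at day 7. Mvk, which adds the first phosphate, fell, with -0.68 and -0.79, and its day 3 call ended without control 1 or 4 or without day 3 graft 1, 4 or 5. Idi1, which isomerises the first isoprenoid, fell, with -1.22 and -1.18. Fdps, which builds farnesyl diphosphate, fell at day 3 (-0.89), and at day 7 its change of -0.68 had an adjusted p of 0.0547 and was called without control 5 or without day 7 graft 2, with -0.94 (adjusted p = 0.00294) and -0.77 (adjusted p = 0.0463). Mvd, the mevalonate decarboxylase that acts before Idi1, was not called at either time, with -0.32 and -0.23, though without control 5 it was lower at day 3, with -0.48 (adjusted p = 0.045).

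Fdft1, squalene synthase (ENSMUSG00000021273, chromosome 14, 63145150 to 63179578), commits isoprenoids to sterols and was at 68.6, 57.4, 43.6, 68.02 and 24.9 CPM in control samples 1 to 5, 17.01, 28.7, 27.6, 24.9 and 23.2 CPM in day 3 grafts 1 to 5, and 17.1, 24.2, 23.5, 21.5 and 14.9 CPM in day 7 grafts 1 to 5. Control 5 lay within the day 3 range, and the day 7 grafts were all below the controls. For Fdft1, the log2 change was -1.04 ± 0.25 (SE), adjusted p = 0.00269 at day 3 and -1.300 ± 0.26 (SE), adjusted p = 5.46e-04 at day 7.

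The next enzyme, Sqle, which oxidises squalene (ENSMUSG00000022351, chromosome 15, 59315077 to 59331192), did not fall. It was at 20.5, 15.7, 17.7, 14.8 and 11.3 CPM in control samples 1 to 5, 16.3, 20.4, 19.6, 18.3 and 12.03 CPM in day 3 grafts 1 to 5, and 18.7, 26.9, 21.6, 21.2 and 18.1 CPM in day 7 grafts 1 to 5. The groups overlapped at both times. Its log2 change was 0.12 ± 0.18 (SE), adjusted p = 0.570 at day 3, and 0.44 ± 0.18 (SE), adjusted p = 0.0444 at day 7, where it rose; leaving out control 2, 4 or 5, day 3 graft 4, or day 7 graft 2, 3 or 4, ended that call, with adjusted p up to 0.172 over all alternatives.

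Lss, which closes squalene epoxide into lanosterol (ENSMUSG00000033105, chromosome 10, 76531588 to 76557138), was at 58.6, 39.6, 34.2, 51.1 and 20.9 CPM in control samples 1 to 5, 10.5, 16.5, 11.3, 10.2 and 9.89 CPM in day 3 grafts 1 to 5, and 12.05, 16.9, 13.3, 13.7 and 9.82 CPM in day 7 grafts 1 to 5. All grafts were below all controls, with control 5 nearest to them. For Lss, the log2 change was -1.74 ± 0.26 (SE), adjusted p = 5.45e-05 at day 3 and -1.56 ± 0.25 (SE), adjusted p = 9.94e-05 at day 7. Cyp51, the lanosterol demethylase, fell at day 3 (-0.76 ± 0.21 (SE), adjusted p = 0.00659) and was not called at day 7 (-0.25). Tm7sf2, a sterol reductase (ENSMUSG00000024799, chromosome 19, 6062821 to 6068373), was low throughout and was at 11.001, 10.7, 9.32, 13.7 and 5.68 CPM in control samples 1 to 5, 3.28, 3.17, 3.37, 2.38 and 3.01 CPM in day 3 grafts 1 to 5, and 2.88, 4.73, 4.38, 3.73 and 2.93 CPM in day 7 grafts 1 to 5. No graft reached the lowest control. For Tm7sf2, the log2 change was -1.68 ± 0.24 (SE), adjusted p = 3.84e-05 at day 3 and -1.39 ± 0.23 (SE), adjusted p = 1.29e-04 at day 7. Lbr, which carries the same reductase activity in the nuclear envelope, was not called, with -0.45 at both times. Control 4 held its lowest level, and without that sample it was called lower, with -0.75 (adjusted p = 3.40e-05) at day 3 and -0.75 (adjusted p = 3.18e-05) at day 7.

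Msmo1, the sterol methyl oxidase (ENSMUSG00000031604, chromosome 8, 64718139 to 64733792), was the other synthesis gene that rose at day 7. It was at 40.3, 22.2, 24.6, 28.6 and 21.4 CPM in control samples 1 to 5, 33.8, 41.5, 34.8, 34.1 and 27.5 CPM in day 3 grafts 1 to 5, and 35.6, 49.3, 36.7, 40.3 and 30.2 CPM in day 7 grafts 1 to 5. Control 1 lay within the graft range and the groups overlapped. For Msmo1, the log2 change was 0.35 ± 0.17 (SE), adjusted p = 0.0927 at day 3 and 0.51 ± 0.17 (SE), adjusted p = 0.0199 at day 7, a call that ended without control 2, control 5 or day 7 graft 2. It was called higher at day 3 without control 1, with 0.50 (adjusted p = 0.016), or without day 3 graft 5, with 0.44 (adjusted p = 0.0497). Nsdhl, which works on the same demethylation step (ENSMUSG00000031349, chromosome X, 72918557 to 72958514), was at 69.8, 60.5, 47.9, 88.5 and 32.4 CPM in control samples 1 to 5, 16.9, 18.6, 17.5, 16.8 and 13.9 CPM in day 3 grafts 1 to 5, and 17.1, 22.9, 20.3, 18.8 and 13.6 CPM in day 7 grafts 1 to 5. Here every graft was below every control. Its log2 change was -1.76 ± 0.23 (SE), adjusted p = 1.65e-05 at day 3 and -1.63 ± 0.23 (SE), adjusted p = 2.69e-05 at day 7. Hsd17b7, the ketoreductase of that step, and Ebp, the sterol isomerase, were not called at either time. Their log2 changes were -0.08 and 0.17 for Hsd17b7, and -0.02 and -0.02 for Ebp, with a 95% interval of -0.27 to 0.23 for Ebp at day 3.

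Near the end of the pathway, Sc5d, the sterol desaturase (ENSMUSG00000032018, chromosome 9, 42251595 to 42264256), was at 187, 98.3, 80.4, 114 and 45.996 CPM in control samples 1 to 5, 19.8, 29.5, 25.1, 23.1 and 22.3 CPM in day 3 grafts 1 to 5, and 21.7, 27.1, 22.1, 23.4 and 14.1 CPM in day 7 grafts 1 to 5. Control 1 was the highest sample and no graft reached control 5. For Sc5d, the log2 change was -2.003 ± 0.29 (SE), adjusted p = 3.79e-05 at day 3 and -2.16 ± 0.29 (SE), adjusted p = 1.89e-05 at day 7. Dhcr7, which makes cholesterol in the last step, had -1.24 ± 0.22 (SE), adjusted p = 2.00e-04 at day 3 and -0.51 ± 0.20 (SE), adjusted p = 0.0349 at day 7; the day 7 call ended without control 1, 2, 3 or 4, or without day 7 graft 1, 4 or 5.

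**Figure D2:**
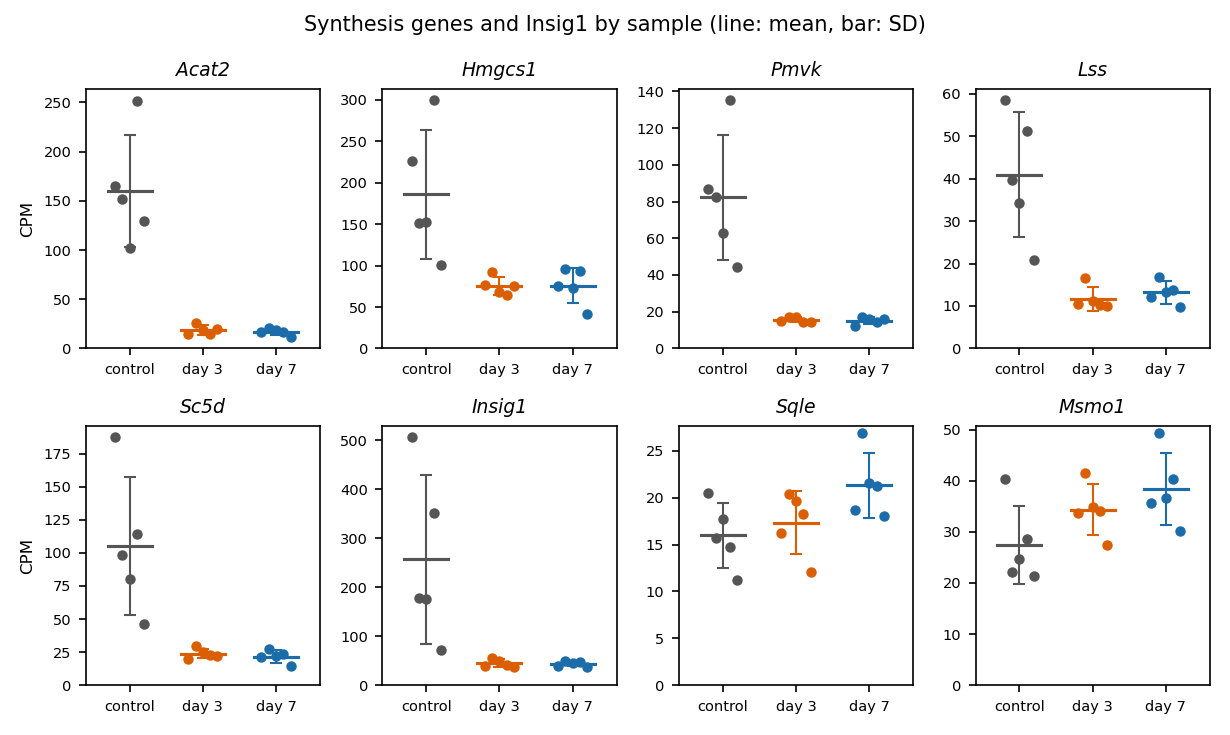
CPM of 7 synthesis genes and Insig1 in each sample (points), with group means (lines) and SD (bars), n = 5 per group. Acat2, Hmgcs1, Pmvk, Lss, Sc5d and Insig1 lay below all controls in every graft, and Sqle and Msmo1 overlapped.

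Summed over the 19 genes, synthesis levels ran from 675 to 1428 CPM in controls, 397 to 510.1 CPM at day 3 and 338 to 569.9 CPM at day 7, so the controls were spread more widely than the grafts. Control 5 was the lowest control for 14 of the 19 synthesis genes, and control 4 the highest for 10. Control 1 was the highest for 8. The same control 5 had the highest macrophage marker sum of the controls (2243 CPM), and control 4 the highest adipocyte marker sum (64877 CPM). The highest keratinocyte marker sum was that of control 1 (169 CPM), which also held the highest Insig1 and Sc5d levels. The adipocyte marker sum was lowest in control 3 (21224 CPM), with 26292 CPM in control 5. Averaged as log2(CPM + 1), the same markers were lowest in control 5 (8.85), with 8.93 in control 3. Any link between these marker levels and the synthesis levels was not tested.

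Among the regulators 2 of 4 fell at day 3 and 3 of 4 at day 7, and none rose. Of all genes tested, 30.3% and 28.4% were called lower at these times and 30.1% and 32.2% higher. Insig1, itself a target of SREBP-2 (ENSMUSG00000045294, chromosome 5, 28071363 to 28078662), was at 506, 178, 177, 350.2 and 70.9 CPM in control samples 1 to 5, 39.1, 56.1, 49.3, 40.96 and 37.5 CPM in day 3 grafts 1 to 5, and 38.7, 49.98, 45.3, 47.9 and 38.1 CPM in day 7 grafts 1 to 5. Controls spread over a wide range and still did not overlap the grafts. For Insig1, the log2 change was -2.24 ± 0.36 (SE), adjusted p = 1.06e-04 at day 3, a 4.73-fold lower level, and -2.26 ± 0.36 (SE), adjusted p = 9.68e-05 at day 7. Scap (ENSMUSG00000032485, chromosome 9, 110333288 to 110384950) was at 37.5, 37.6, 42.1, 37.3 and 27.001 CPM in control samples 1 to 5, 21.3, 25.3, 23.3, 22.6 and 22.3 CPM in day 3 grafts 1 to 5, and 26.1, 29.7, 29.9, 30.2 and 25.5 CPM in day 7 grafts 1 to 5. It was below all controls at day 3, and control 5 lay within the day 7 range. Every day 7 graft was above every day 3 graft, by little, and that difference was not called. For Scap, the log2 change was -0.65 ± 0.11 (SE), adjusted p = 2.01e-04 at day 3 and -0.35 ± 0.11 (SE), adjusted p = 0.0134 at day 7, and the day 7 direction flipped to 0.13 on log2(TPM + 1) values. Insig2, the second INSIG (ENSMUSG00000003721, chromosome 1, 121304353 to 121332589), was at 46.2, 55.1, 39.4, 90.7 and 49.2 CPM in control samples 1 to 5, 43.7, 49.02, 46.7, 53.6 and 49.9 CPM in day 3 grafts 1 to 5, and 38.6, 38.8, 38.5, 40.4 and 45.4 CPM in day 7 grafts 1 to 5. Control 4 stood far above the other controls and the groups overlapped. Its log2 change was -0.15 ± 0.17 (SE), adjusted p = 0.456 at day 3 and -0.42 ± 0.17 (SE), adjusted p = 0.0435 at day 7, where it ended without control 2 or 4, any of day 3 grafts 1, 2, 3 and 5 or any of day 7 grafts 1 to 4, and flipped to 0.24 on log2(TPM + 1). Srebf2 was not called, with -0.26 (95% interval -0.69 to 0.18) and -0.21 (-0.64 to 0.22).

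Uptake and transfer genes rose in 4 of 5 cases at day 3 and 3 of 5 at day 7, with 1 lower at each time. The shares of all genes tested were 30.1% and 32.2% higher and 30.3% and 28.4% lower. Lipa, the lysosomal acid lipase that frees cholesterol from its esters (ENSMUSG00000024781, chromosome 19, 34492318 to 34527474), had the largest rise of the 35 genes at day 7. It was at 69.7, 66.002, 61.1, 74.2 and 102 CPM in control samples 1 to 5, 453, 231, 411, 327 and 294 CPM in day 3 grafts 1 to 5, and 471, 722, 449, 562 and 413 CPM in day 7 grafts 1 to 5. All grafts were above all controls. For Lipa, the log2 change was 2.19 ± 0.19 (SE), adjusted p = 6.06e-07 at day 3 and 2.805 ± 0.20 (SE), adjusted p = 1.06e-07 at day 7, levels 4.56-fold and 6.99-fold higher. Npc1, which carries freed cholesterol out of the lysosomal membrane, was at 50.6, 49.98, 49.9, 60.02 and 61.3 CPM in control samples 1 to 5, 167, 103, 169, 166 and 117 CPM in day 3 grafts 1 to 5, and 153, 159.9, 156, 156 and 194 CPM in day 7 grafts 1 to 5. Again no sample of a graft fell into the control range. For Npc1, the log2 change was 1.39 ± 0.14 (SE), adjusted p = 1.83e-06 at day 3 and 1.59 ± 0.14 (SE), adjusted p = 5.44e-07 at day 7.

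Npc2, the soluble partner that hands cholesterol to Npc1 (ENSMUSG00000021242, chromosome 12, 84754562 to 84773152), was at 487, 479.5, 401, 1040.1 and 503 CPM in control samples 1 to 5, 869, 809, 899, 1111 and 867 CPM in day 3 grafts 1 to 5, and 632, 661, 659, 578 and 753 CPM in day 7 grafts 1 to 5. Control 4 was as high as the day 3 grafts, and the other controls were below them. For Npc2, the log2 change was 0.73 ± 0.21 (SE), adjusted p = 0.00691 at day 3 and 0.26 ± 0.20 (SE), adjusted p = 0.275 at day 7, and every day 7 graft was below every day 3 graft. Without control 4 alone, Npc2 was called higher at day 7 too, with 0.50 (adjusted p = 0.00125). Stard4, a cytosolic sterol carrier, was at 19.6, 16.95, 20.3, 12.2 and 17.8 CPM in control samples 1 to 5, 29.8, 40.6, 31.9, 27.9 and 26.4 CPM in day 3 grafts 1 to 5, and 40.3, 41.98, 42.1, 41.5 and 26.1 CPM in day 7 grafts 1 to 5. All grafts were above all controls, day 7 graft 5 by the least of its group. Its log2 change was 0.86 ± 0.18 (SE), adjusted p = 8.42e-04 at day 3 and 1.15 ± 0.18 (SE), adjusted p = 7.05e-05 at day 7. Scarb1, the HDL receptor (ENSMUSG00000037936, chromosome 5, 125277087 to 125341094), was at 107, 83.6, 80.3, 149.5 and 103 CPM in control samples 1 to 5, 61.6, 84.96, 77.6, 71.7 and 64.5 CPM in day 3 grafts 1 to 5, and 54.4, 84.5, 75.3, 89.2 and 56.4 CPM in day 7 grafts 1 to 5. It overlapped between groups and fell by little: -0.51 ± 0.18 (SE), adjusted p = 0.0241 at day 3 and -0.53 ± 0.18 (SE), adjusted p = 0.0196 at day 7. The day 3 call ended without control 4, day 3 graft 1 or day 3 graft 5, and the day 7 call without day 7 graft 1.

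Storage and efflux genes were mixed, with 2 higher and 1 lower of 5 at day 3 and 1 higher at day 7. Over all genes tested, 30.1% were called higher and 30.3% lower at day 3, and 32.2% higher at day 7. Soat1, which esterifies cholesterol for storage (ENSMUSG00000026600, chromosome 1, 156424525 to 156474331), was at 34.6, 33.9, 45.2, 14.4 and 63.3 CPM in control samples 1 to 5, 179, 108, 172, 202 and 162 CPM in day 3 grafts 1 to 5, and 181, 169.5, 165, 189 and 215 CPM in day 7 grafts 1 to 5. Every graft was above every control. For Soat1, the log2 change was 2.23 ± 0.30 (SE), adjusted p = 2.00e-05 at day 3, a 4.71-fold higher level, and 2.42 ± 0.30 (SE), adjusted p = 1.00e-05 at day 7. Abcg1, which exports cholesterol to HDL (ENSMUSG00000024030, chromosome 17, 31057675 to 31117988), was at 75.6, 49.9, 76.9, 28.7 and 92.99 CPM in control samples 1 to 5, 116, 86.5, 135, 98.4 and 140.1 CPM in day 3 grafts 1 to 5, and 83.6, 75.6, 74.6, 88.9 and 67.3 CPM in day 7 grafts 1 to 5. The day 3 grafts were high, with control 5 inside their range, and the day 7 grafts lay among the controls. For Abcg1, the log2 change was 0.92 ± 0.26 (SE), adjusted p = 0.00680 at day 3 and 0.37 ± 0.26 (SE), adjusted p = 0.218 at day 7, and the day 3 change was 0.46, still called, without controls 2 and 4. Abca1, which exports cholesterol to lipid-poor apolipoprotein, was not called, with 0.28 (95% interval -0.13 to 0.68) and 0.36 (-0.06 to 0.77). On log2(TPM + 1) values it was called higher, with 0.55 (adjusted p = 0.0175) and 0.73 (adjusted p = 0.00279), and likewise at both times with sample quality weights and at day 7 with library totals. Lcat, the plasma enzyme that esterifies cholesterol on HDL, stayed at or below 2.01 CPM in every sample and was not called.

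Apoe, the apolipoprotein that accepts exported cholesterol (ENSMUSG00000002985, chromosome 7, 19696109 to 19699188), was the one gene of the 35 called between the graft times. It was at 1444, 1467, 1115, 2124 and 1829.8 CPM in control samples 1 to 5, 1029, 840.3, 1135, 744 and 885 CPM in day 3 grafts 1 to 5, and 1167, 1669, 1633, 1549 and 3124 CPM in day 7 grafts 1 to 5. The day 3 grafts were low, with 1 control inside their range, and day 7 graft 5 stood far above every other sample. For Apoe, the log2 change was -0.76 ± 0.23 (SE), adjusted p = 0.00960 at day 3 and 0.15 ± 0.24 (SE), adjusted p = 0.593 at day 7. Between the graft times it was 0.91 ± 0.23 (SE), adjusted p = 0.0368, and all day 7 grafts were above all day 3 grafts. That call ended when control 1, any of day 3 grafts 2 to 5, or any of day 7 grafts 2 to 4 was left out, and with the replicate number as a block, with adjusted p of 0.00348 to 0.103 over the alternatives.

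**Figure D3:**
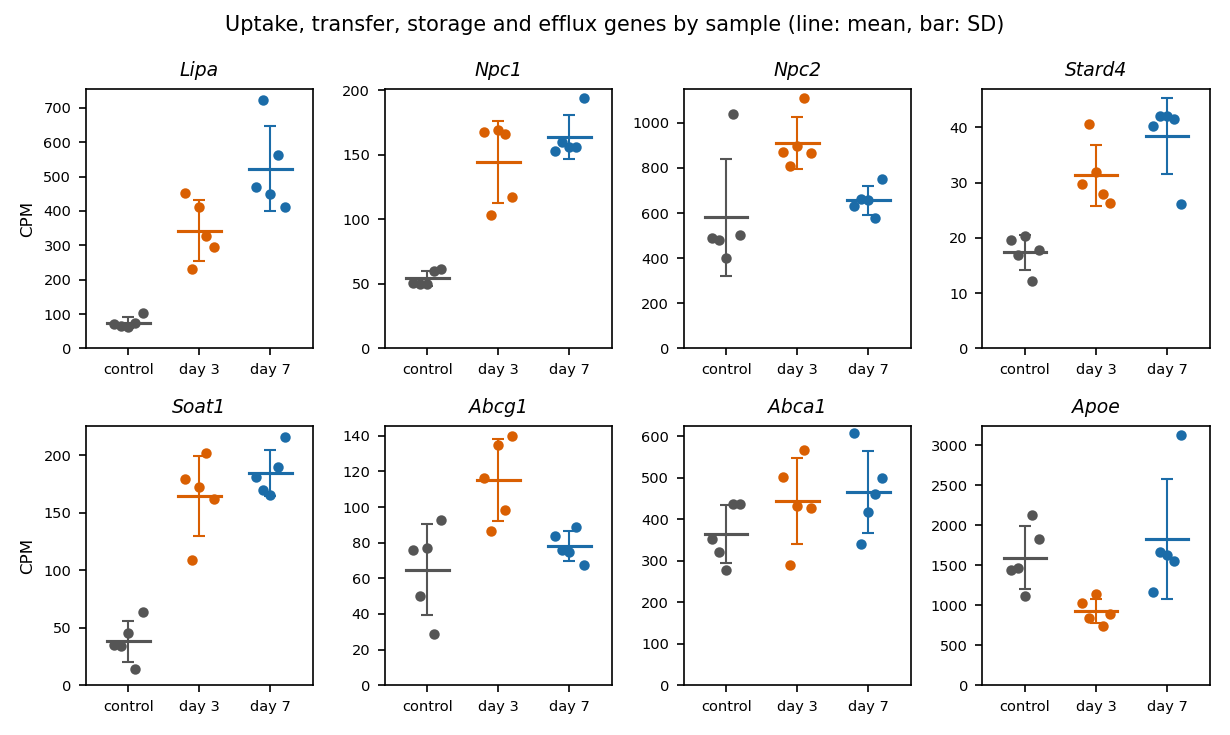
CPM of 8 uptake, transfer, storage and efflux genes in each sample (points), with group means (lines) and SD (bars), n = 5 per group. Lipa, Npc1, Stard4 and Soat1 lay above all controls in every graft, Abca1 overlapped, and Apoe was lowest at day 3.

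The 2 oxysterol enzymes moved in opposite directions at day 3, when 30.1% of all genes tested were called higher and 30.3% lower. Ch25h, which makes 25-hydroxycholesterol and is induced in activated macrophages (ENSMUSG00000050370, chromosome 19, 34473778 to 34475164), was at 2.62, 2.32, 1.94, 0.505 and 3.27 CPM in control samples 1 to 5, 6.32, 7.22, 8.06, 8.89 and 4.72 CPM in day 3 grafts 1 to 5, and 7.18, 3.03, 3.03, 7.41 and 1.62 CPM in day 7 grafts 1 to 5. All day 3 grafts were above the controls, and the day 7 grafts were split between high and control-like samples. Its log2 change was 1.95 ± 0.49 (SE), adjusted p = 0.00312 at day 3 and 1.05 ± 0.51 (SE), adjusted p = 0.0880 at day 7, where it was called higher without day 7 graft 5, with 1.32 (adjusted p = 0.0287). Cyp27a1, the mitochondrial sterol hydroxylase (ENSMUSG00000026170, chromosome 1, 74713574 to 74737892), was at 28.1, 28.8, 25.9, 38.5 and 18.4 CPM in control samples 1 to 5, 14.6, 14.9, 13.6, 6.98 and 14.8 CPM in day 3 grafts 1 to 5, and 14.6, 29.01, 20.1, 22.2 and 16.2 CPM in day 7 grafts 1 to 5. The day 3 grafts were all below the controls, while day 7 graft 2 was among the higher controls. For Cyp27a1, the log2 change was -1.13 ± 0.25 (SE), adjusted p = 0.00149 at day 3 and -0.46 ± 0.24 (SE), adjusted p = 0.107 at day 7, where it was called lower without control 5 (-0.60, adjusted p = 0.0363) or without day 7 graft 2 (-0.59, adjusted p = 0.0452).

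Synthesis was set against storage and efflux by averaging log2(CPM + 1) over the genes of each list in each sample. The synthesis average was 5.26 ± 0.36 (SD, n = 5) in controls, 4.25 ± 0.15 at day 3 and 4.35 ± 0.23 at day 7. The storage and efflux average was 6.25 ± 0.24, 6.79 ± 0.18 and 6.94 ± 0.08. Each gene had equal weight in it, and Soat1 had by far the largest log2 change, at 2.23 and 2.42. The other genes of that list ran from -0.76 to 0.92 at day 3 and from 0.15 to 0.37 at day 7. The plain sum of the 5 storage and efflux genes, most of it Apoe, took another course, with 2064 ± 442 CPM in controls, 1651 ± 218 CPM at day 3 and 2557 ± 762 CPM at day 7. Without Apoe the sum was 469 ± 78.4, 725 ± 144 and 729 ± 111 CPM. Synthesis minus storage and efflux ran from -1.93 to -0.43 in controls, -2.81 to -2.03 at day 3 and -3.05 to -2.22 at day 7, so that control 5 was nearest to day 3 graft 2. The mean difference moved by -1.55 from control to day 3 and by -1.59 from control to day 7. These averages describe genes chosen with results known and were not tested.

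**Figure D4:**
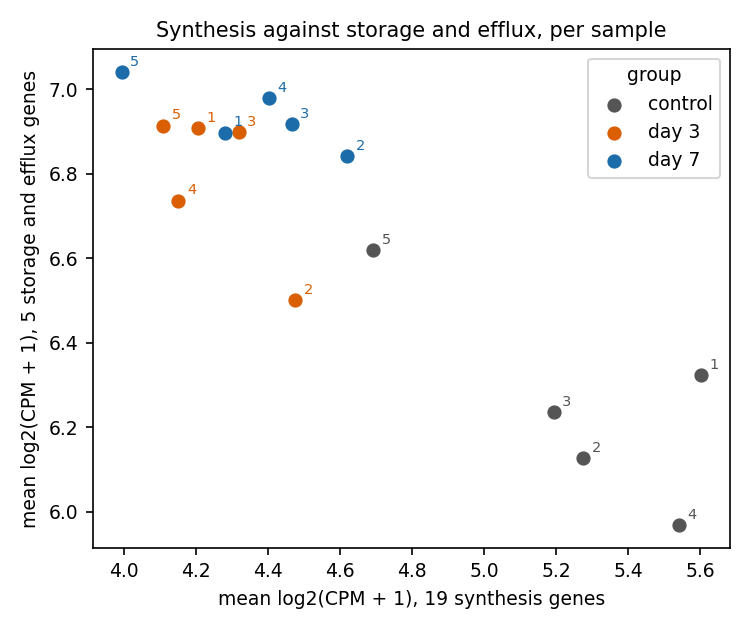
Mean log2(CPM + 1) of the 19 synthesis genes (x axis) against that of the 5 storage and efflux genes (y axis), 1 point per sample, numbered by sample within its group. The 10 grafts sit to the left of the 5 controls, and control 5 is the control nearest to them.

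Levels were compared between genes on the deposited TPM values, which account for gene length. Apoe was the most abundant of the 35 in each group, at 2183 ± 176 TPM (SD, n = 5) in controls, 1416 ± 254 TPM at day 3 and 2946 ± 904 TPM at day 7, followed by Npc2 at 209.7 ± 38.1, 437 ± 33.4 and 325 ± 15.4 TPM. In controls the next were Insig1 at 119 ± 78.5 TPM, Pmvk at 92.9 ± 21.6 TPM, Acat2 at 86.8 ± 11.5 TPM and Hmgcs1 at 66.4 ± 18.1 TPM, whose ranges overlapped. In day 3 grafts they were Lipa at 174 ± 47.4 TPM, Soat1 at 68.4 ± 11.4 TPM, Npc1 at 64.4 ± 7.18 TPM and Abca1 at 61.996 ± 14.1 TPM, and the last 3 lay within each other's spread. Day 7 grafts had the same order, with Lipa at 287 ± 78.9 TPM and Soat1 at 82.3 ± 10.9 TPM. Lcat was the least abundant in every group.

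Another 36 genes of the same pathways were listed, of which 34 were tested. Of these, 13 rose and 12 fell at day 3, where 30.1% of all genes tested were called higher and 30.3% lower. At day 7, 13 rose and 15 fell, where 32.2% of all genes were called higher and 28.4% lower. Between the graft times 1 rose and 2 fell, where 3.18% and 1.71% of all genes did. Msr1, a scavenger receptor of macrophages, had the largest rise, from 26.7 ± 23.99 CPM (SD, n = 5) in controls to 439 ± 191 CPM at day 3 (4.24 ± 0.42 (SE), adjusted p = 1.41e-06) and 255 ± 54.5 CPM at day 7. Cyp7b1, an oxysterol hydroxylase, rose by 2.23 and 2.96, with control 5 at 11.5 CPM and the other controls at 1.01 to 1.85 CPM. Apoc1, another apolipoprotein, fell, with log2 changes of -2.36 and -4.599. Lipe, the hormone-sensitive lipase of adipocytes and also one of the 16 adipocyte markers, fell, with -2.54 and -4.23.

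Some counts are uncertain because 18 of the 35 genes overlap another gene, 6 of them a gene with at least 10% of their own counts. These are Mvd with Gm20388, Fdft1 with Ctsb, Cyp51 with Akap9, Npc1 with Rmc1 and Ch25h with Gm26902 on opposite strands, and Tm7sf2 with Vps51 on the same strand. Over all samples, Ctsb had 1809858 counts against 11412 for Fdft1, and Gm20388 had 43992 against 3235 for Mvd. Akap9 had 23610 against 13782 for Cyp51, and Vps51 had 7211 against 1965 for Tm7sf2. Rmc1 and Gm26902 had 36.5% and 14.2% of the counts of Npc1 and Ch25h. The kit marks strand, and the sources used here do not say whether counting used it. On log2(TPM + 1) values the median of all genes moved by 0.22 at day 3 and 0.33 at day 7, the share of calls that were higher was 68.0% and 74.1% in place of 49.9% and 53.1%, and synthesis genes gave 2 higher and 10 lower at day 3 and 4 higher and 9 lower at day 7. On that scale the falls of Mvk, Scap and Scarb1 at both times, of Fdps and Cyp51 at day 3, and of Dhcr7 and Insig2 at day 7 were not called. The same values called Ebp (0.29 and 0.37) and Abca1 higher at both times, Msmo1 at day 3, and Hsd17b7, Npc2 and Ch25h at day 7.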

How the data were processed

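Tissue RNA was extracted with Trizol and columns, and stranded mRNA libraries were sequenced as 151 bp read pairs, per the labels' protocols. The authors used cutadapt 2.8, STAR 2.7.1a and RSEM 1.3.1 with build mm10, per the submitters' processing notes. Which annotation release was used is not stated in those notes. The deposited matrix gives a read count, an RPKM and a TPM value per gene and sample, per the file headers. The deposited RPKM values were not used, and TPM served for levels between genes and as an alternative. The counts carry digit separators, which were removed.

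Genes with at least 10 counts in a median-sized library (0.389 CPM) in 5 samples and 15 in all were kept. CPM used library totals times trimmed-mean scaling factors (0.746 to 1.14). All 15 samples were fitted together with limma-voom (R 4.3.3, limma 3.58.1), with Benjamini-Hochberg adjustment over 16051 genes and a threshold of 0.05. The fit was tested on simulated data. Fold changes are log2, computed from the counts. Alternatives changed scaling, filter, samples, weights, the replicate block and the values. All 35 symbols matched the RefSeq gene table (GRCm38.p6), and coordinates are those of the deposited matrix.

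The members, gene lists and tests were chosen with earlier results of these data known. Values in every sample are given for the 8 synthesis genes with the largest called change, called synthesis genes that moved against their list, and genes of the other lists called at least once. Of the other pathway genes, the 4 with the largest called change and at least 10 CPM in a group are named. Some genes of these pathways are not reported here.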

Additional observations from a re-analysis of the deposited data

Results flagged for a closer look

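Of 114 groups of 5 values, 12 held a sample separated from the others by more than Dixon's limit of 0.71 of the range, where chance gives about 5% of groups. In day 3 graft 2 this was so for Mvk at 11.4 CPM, Lss at 16.5 CPM and Hsd17b7 at 10.1 CPM, each the highest of its group, and for synthesis minus storage and efflux at -2.03. Day 7 graft 5 stood apart for Apoe at 3124 CPM, Npc1 at 194 CPM and Insig2 at 45.4 CPM on the high side, and for Stard4 at 26.1 CPM on the low side. Control 4 was separate for Npc2 at 1040.1 CPM and Ebp at 61.3 CPM, both high. Control 5 was low for Dhcr7 at 11.2 CPM, and day 3 graft 4 was low for Cyp27a1 at 6.98 CPM.

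The Apoe effect against control differed between the graft times by 0.91 on the log2 scale, the day 7 against day 3 contrast of the same fit.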

How the results depend on the processing

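Every gene test was repeated under 13 alternatives and with each of the 15 samples left out. All 7 genes higher at day 3 were called so in all 28, as were 13 of 18 lower at day 3, 4 of 6 higher and 10 of 15 lower at day 7, and 0 of 1 higher between graft times. Of the genes not called, 4 of 10 at day 3 and 4 of 14 at day 7 were not called in any of them. The number higher at day 7 against control was 11 on log2(TPM + 1) and on log2(TPM + 0.1), in place of 6. Between day 7 and day 3 grafts, the number higher was 2 with only the 2 groups compared, 7 with sample quality weights and 4 without day 3 graft 1 and day 7 graft 5, and the number lower was 3 with only the 2 groups compared, 1 on both TPM scales, 3 with sample quality weights and 3 without controls 2 and 4. Leaving out 1 sample at a time gave 0 to 3 higher and 0 to 1 lower there, and the cause was not tested. The labels do not say whether shared replicate numbers pair the samples. Same-numbered samples correlated at -0.18 to 0.34 over 15 pairs, 5 of them above 0.1, and 1 sample correlated best with its own number. With 5 samples per group, these correlations cannot exclude a shared donor or recipient. With the replicate block, 7 rose and 18 fell at day 3, 6 rose and 16 fell at day 7, and 1 rose between graft times, which was Dhcr7 (0.73, adjusted p = 0.0196) and not Apoe. Synthesis minus storage and efflux changed by -1.78 to -1.40 at day 3 and -1.82 to -1.45 at day 7 over the samples left out, a range added after seeing the data.

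Directions turned in 101 values of 26 results, 4 of the values belonging to genes called in the main test (Scap and Insig2 at day 7). With median-of-ratios scaling, they were Lbr -0.022 for day 7 against day 3. With upper-quartile scaling, they were Ebp 0.017 and Insig1 0.0083 for day 7 against day 3. With library totals, they were Ebp 0.023 for day 3 against control, Ebp 0.058 for day 7 against control, Hmgcs1 0.0044, Ebp 0.035, Insig1 0.025 and Scarb1 0.016 for day 7 against day 3. With a filter at 1 CPM, they were Ebp 0.0014 for day 7 against day 3. With no filter beyond 1 count, they were Ebp 0.032 for day 3 against control, Ebp 0.012 for day 7 against control, Lbr -0.013 for day 7 against day 3. With only the 2 groups compared, they were Lbr -0.011 for day 7 against day 3. With the replicate block, they were Lbr -0.0035 for day 7 against day 3. With log2(TPM + 1) values, they were Hsd17b7 0.19, Ebp 0.29, Srebf2 0.029 and Insig2 0.29 for day 3 against control, Mvd 0.14, Cyp51 0.13, Ebp 0.37, Srebf2 0.10, Scap 0.13 and Insig2 0.24 for day 7 against control, Hmgcs1 0.062, Pmvk 0.053, Ebp 0.081, Insig1 0.071 and Scarb1 0.085 for day 7 against day 3. With log2(TPM + 0.1) values, they were Hsd17b7 0.26, Ebp 0.29, Srebf2 0.037 and Insig2 0.30 for day 3 against control, Mvd 0.17, Cyp51 0.13, Ebp 0.38, Srebf2 0.12, Scap 0.14 and Insig2 0.24 for day 7 against control, Hmgcs1 0.062, Pmvk 0.055, Ebp 0.083, Insig1 0.073 and Scarb1 0.086 for day 7 against day 3. With sample quality weights, they were Sqle -0.066 and Ebp 0.086 for day 3 against control, Ebp 0.050 for day 7 against control, Hmgcs1 0.17, Insig1 0.070, Scarb1 0.11 and Abca1 -0.010 for day 7 against day 3. With controls 2 and 4 left out, they were Ebp 0.074 and Insig2 0.10 for day 3 against control, Hsd17b7 -0.056, Ebp 0.044 and Abcg1 -0.11 for day 7 against control, Lbr -0.022 for day 7 against day 3. With day 3 graft 1 and day 7 graft 5 left out, they were Apoe -0.054 for day 7 against control, Hmgcs1 0.18, Ebp 0.018 and Scarb1 0.0049 for day 7 against day 3. With 1 sample left out, ranges that crossed 0 were Hsd17b7 -0.17 to 0.044, Ebp -0.065 to 0.12, Insig2 -0.26 to 0.064 and Lcat -0.056 to 0.35 for day 3 against control, Ebp -0.070 to 0.11 and Apoe -0.084 to 0.30 for day 7 against control, Lbr -0.031 to 0.047, Ebp -0.041 to 0.052, Hmgcs1 -0.13 to 0.15, Mvk -0.20 to 0.012, Insig1 -0.072 to 0.074, Scarb1 -0.11 to 0.073, Abca1 -0.063 to 0.18, Idi1 -0.11 to 0.22, Lcat -0.10 to 0.38, Srebf2 -0.017 to 0.13 and Pmvk -0.10 to 0.031 for day 7 against day 3.

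Simulated 2-fold changes were recovered in 40.9% of cases in the day 3 comparison and 33.3% at day 7. Simulated 4-fold changes were recovered in 100% and 98.5%, on 16219 and 16227 genes. The simulation used a set dispersion of 0.1 and 200 changed genes, whereas 60.4% and 60.7% of all genes tested were called in the samples. These rates do not describe the fit to the samples, and the share of changes missed there was not tested.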

Other observations

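Among the wider list of pathway genes, several with a known place beside the 35 changed against control, and these were picked after their values were seen. Nceh1, a cholesterol ester hydrolase of macrophages, rose by 2.16 at day 3 and 2.46 at day 7 on the log2 scale. Lrp1, a receptor for lipoprotein remnants, rose by 1.93 and 1.67, Tmem97, a regulator of Npc1, by 1.46 and 1.78, and Pltp, which transfers phospholipid between lipoproteins, by 1.46 and 1.70. Srebf1, which drives fatty acid synthesis, fell, with log2 changes of -2.204 and -2.69, as did Nr1h3, the oxysterol receptor LXR alpha, with -0.98 and -1.63. Mylip, a ubiquitin ligase, fell, with -0.97 at day 3 and -0.47 at day 7, and was the one gene of that list that rose between the graft times, by 0.50.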
